A study of Mus musculus with 6 samples.

Results

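Osteoclasts (OCs) resorb bone and also send signals that recruit osteoblasts, guide their differentiation or hold them back, a link between resorption and formation known as coupling. The genes followed here encode 9 such signals or, for Sphk1, the enzyme that makes one: Sphk1, Tgfb1, Pdgfb, Lif, Wnt10b, Cthrc1, Slit3, Sema4d and Efnb2. Each was looked up by its symbol among the 21492 genes measured. A row was found for 8 of the 9, and 7 of those 8 passed the filter on low values that left 14047 genes for testing. Slit3 was not analysed here.

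The RNA came from mouse bone marrow cells cultured into OCs, in 3 libraries from wild-type mice (WT, numbered 3, 82 and 94) and 3 from Dcir-/- mice (numbered 21, 22 and 83). DCIR, encoded by Clec4a2, is an inhibitory C-type lectin receptor of myeloid cells, and Dcir-/- mice lack it throughout the body. Both groups are of the C57BL/6J strain: by the study's methods the mutants were backcrossed for 12 generations, the WT mice were bought rather than bred as littermates, and mice were 8 to 12 weeks old. Cells of both genotypes received M-CSF at 20 ng/ml and RANKL at 100 ng/ml, and no group without RANKL was compared. The labels give day 4 and 2 days of RANKL, whereas the methods give 4 days with both factors, so the exact exposure is uncertain. The labels do not say that each library came from its own mouse, so the p-values speak only to how far these 6 cultures or libraries spread, which could be technical spread.

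Coupling signals reach osteoblast-lineage cells in several ways. Some are secreted by the OC (PDGF-BB, LIF, CTHRC1, SLIT3 and Wnt proteins), some are held on its surface and read by a receptor on the neighbouring cell (ephrin-B2, SEMA4D), one is a lipid (sphingosine-1-phosphate, S1P), and TGF-beta 1 is also stored in bone matrix and set free by resorption. Most are known to favour bone formation, whereas SEMA4D is known to restrain it. An RNA level does not report shedding, secretion or activation, which govern several of these signals.

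As a description of the whole series, the column totals of the adjusted counts lay between 33035020.2 and 34068308.6, which the authors' adjustment to a common size sets, so raw depth is unknown. Clec4a2 stood at 0.788, 1.15 and 0.496 CPM (adjusted counts per 1000000 of the mean column total) in Dcir-/- 21, 22 and 83, against 275, 239 and 289 CPM in WT 3, 82 and 94, so all 6 libraries matched their labels. WT 3 lay at one end of the first principal component (score -35.3, 53.5% of the variance) and Dcir-/- 21 at the other (22.4), and WT 94 stood apart on the second. The 15 OC markers were all past the filter. Of 20 osteoblast and stromal markers only Runx2 was, Col1a1, Sp7, Bglap, Pdgfra and Pdgfrb fell below it, and Alpl and Ibsp were not analysed here. The values below come from OC cultures in which most markers of the receiving cell were below the filter. Macrophage and neutrophil markers were also present, such as Adgre1 at 383.5 and S100a9 at 131.5 CPM (means of 6 libraries). Bulk RNA does not assign a transcript to the OC.

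The upstream sequences of 3 coupling genes, Sphk1, Lif and Efnb2, are printed because these genes shared 1 library pattern, highest in Dcir-/- 21 and lowest in WT 3, with the largest spread among the 7 tested. Pdgfb had the same pattern, but the table holds no promoter of it, nor of Cthrc1, so that 7 of the 9 genes were matched. Each line holds the 250 bases before a RefSeq start site on GRCm38.p6, 5' to 3' on the strand of the gene. Capitals mark matches on either strand to 4 short motifs. These are TATAAA, known as the TATA box, then GGAAA, known as the core of sites for NFAT factors, then TGANTCA, bound by AP-1, and lastly CACGTG, an E-box that MITF can bind. NFAT, AP-1 and MITF are factors known for the control of OC genes. Sphk1 has 5 such windows, and the one shown, chr11:116530850-116531099 (+), is the first by position. GENCODE places the first base of Sphk1 inside it. The Lif window is chr11:4257318-4257567 (+) and the Efnb2 window is chr8:8661243-8661492 (-). The first base of Lif by GENCODE, 4257557, also lies inside its window, whereas that of Efnb2 lies just outside.
Sphk1: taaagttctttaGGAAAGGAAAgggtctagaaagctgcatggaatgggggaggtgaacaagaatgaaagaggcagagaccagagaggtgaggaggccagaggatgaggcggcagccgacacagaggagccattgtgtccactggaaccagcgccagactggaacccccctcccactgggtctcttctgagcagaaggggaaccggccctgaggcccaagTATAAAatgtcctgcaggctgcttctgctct
Lif: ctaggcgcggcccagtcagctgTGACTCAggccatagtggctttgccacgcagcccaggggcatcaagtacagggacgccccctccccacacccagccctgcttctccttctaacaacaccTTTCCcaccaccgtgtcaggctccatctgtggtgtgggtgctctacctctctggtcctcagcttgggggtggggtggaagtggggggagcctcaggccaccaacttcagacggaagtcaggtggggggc
Efnb2: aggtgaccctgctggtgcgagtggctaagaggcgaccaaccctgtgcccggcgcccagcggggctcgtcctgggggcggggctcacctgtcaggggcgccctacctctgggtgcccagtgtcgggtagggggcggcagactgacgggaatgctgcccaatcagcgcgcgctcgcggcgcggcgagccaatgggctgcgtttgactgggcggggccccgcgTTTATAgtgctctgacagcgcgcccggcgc

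The 3 windows held different letters. The Sphk1 window shown carried TATAAA beginning 31 bases before the start and GGAAA at 238 and 233 bases before it. The other 4 Sphk1 windows, some of which overlap, held no TATAAA. Each of them held GGAAA, windows 2 and 3 by position held TGANTCA, and windows 4 and 5 held CACGTG. Lif carried TGANTCA at 228 bases, and GGAAA on the opposite strand at 129. Efnb2 carried TATAAA on the opposite strand at 30 bases and none of the others. GC content was 55.6% in the Sphk1 window, 63.6% in that of Lif and 72.0% in that of Efnb2. Among all 32851 windows in the table, TATAAA occurred in 12.4%, GGAAA in 55.6%, TGANTCA in 6.75% and CACGTG in 6.02%, with a median GC content of 52.4%. No motif was shared by the 3 windows shown, and a match describes the letters only.

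The levels of the 8 genes were compared per kb of merged exons, since a longer transcript yields more reads. Sema4d was highest at 119 ± 3.43 CPM per kb (mean ± SD, n = 6 libraries), above 97.9% of the genes measured. Pdgfb followed at 86.4 ± 7.73 CPM per kb and Tgfb1 at 52.6 ± 2.86 CPM per kb. The ranges of these 3 over the libraries did not meet. Sphk1 came next at 4.65 ± 1.46 CPM per kb, a step of 11.3-fold below Tgfb1. Efnb2 had 3.47 ± 0.629 CPM per kb and Lif 2.93 ± 0.542 CPM per kb. The ranges of neighbours in this middle group overlapped, Sphk1 with Efnb2 and Efnb2 with Lif. Within every library, however, Sphk1 was above Efnb2 and Efnb2 above Lif. Cthrc1, at 1.46 ± 0.317 CPM per kb, and Wnt10b, at 0.0339 ± 0.0313 CPM per kb, lay below them without overlap. Per kb, Sphk1, Efnb2 and Lif lay above 59.8%, 55.1% and 52.4% of the genes measured, Cthrc1 above 43.5% and Wnt10b above 6.9%. Among all genes measured, those below the filter included, 3 coupling transcripts were thus abundant, 4 were near the middle and 1 was near zero. Cthrc1, at a mean of 2.32 CPM over the 6 libraries, was close to the filter of 1 CPM.

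**Figure D1:**
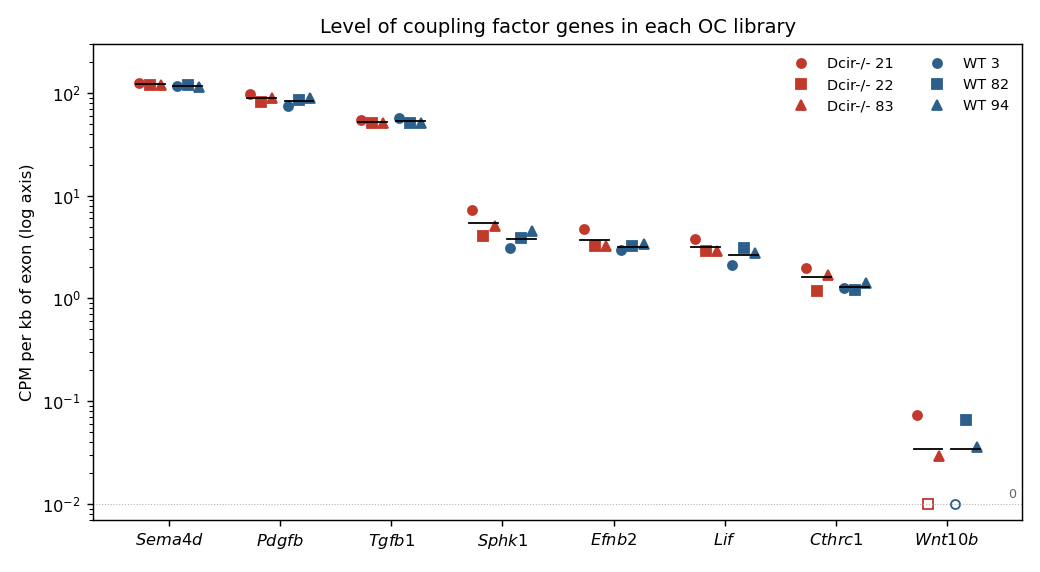
CPM per kb of exon (log axis) of the 8 coupling factors with a row, 1 point per library (red, Dcir-/-, blue, WT), with the mean of each group of 3 as a line and values of 0 drawn open at the foot of the axis. The ranges of Dcir-/- and WT points overlap for every gene, from Sema4d at 114 to 124 CPM per kb down to Wnt10b at 0 to 0.0730 CPM per kb.

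Between genotypes, none of the 7 tested coupling factors passed the test, a limma fit of log2(CPM + 1) over 14047 genes with Benjamini-Hochberg adjustment at 0.05, 2-sided. The background is 0.441%, since 62 of all tested genes passed. None reached an unadjusted p under 0.05, which 12.5% of all tested genes did, and none had groups that did not overlap, which 19.8% did. The mean, here and in the lists below that of log2(CPM + 1), was higher in Dcir-/- OCs for 6 of the 7, against 53.8% of all tested genes, and the exception was Tgfb1. The median log2 difference of the 7 was 0.20, beside 0.015 over all tested genes. Differences are Dcir-/- over WT throughout.

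**Figure D2:**
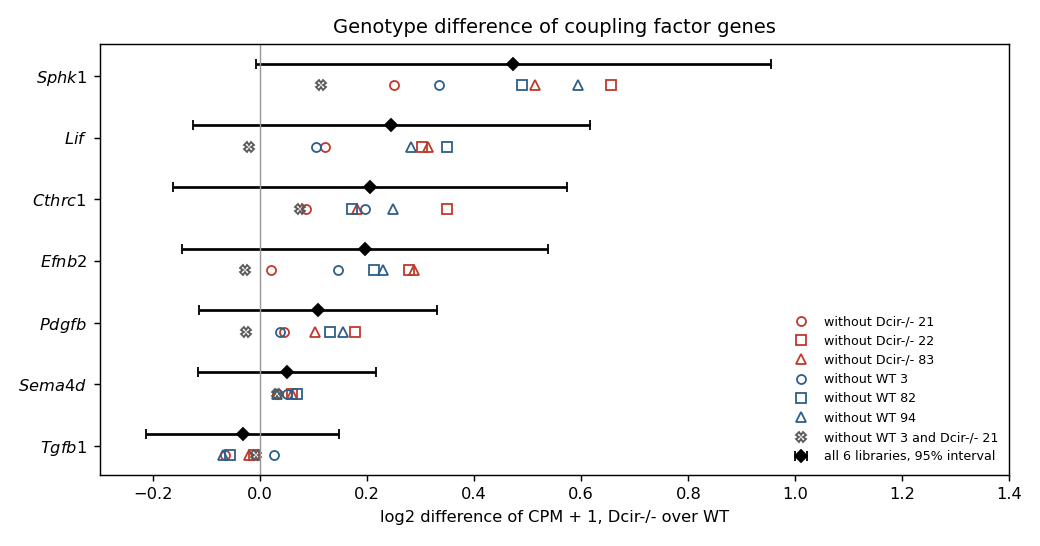
Log2 difference of CPM + 1, Dcir-/- over WT (n = 3 each), of the 7 tested coupling factors, with 95% intervals of the limma fit and, as separate marks, the values with 1 library or with both WT 3 and Dcir-/- 21 left out. Every interval includes 0, and Sphk1 has the highest estimate at 0.47.

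Sphk1 (ENSMUSG00000061878.16, chromosome 11: 116530925-116536674, + strand) encodes sphingosine kinase 1, which phosphorylates sphingosine to S1P. It read 35.0, 19.5 and 24.0 CPM in Dcir-/- 21, 22 and 83, and 14.8, 18.5 and 21.5 CPM in WT 3, 82 and 94. Dcir-/- 21 alone stood far above the others, and Dcir-/- 22 lay below WT 94. The mean was 26.2 ± 7.96 CPM in the mutant and 18.3 ± 3.39 CPM in the WT group (SD, n = 3 per group), a ratio of means of 1.43. On the log2(CPM + 1) scale the difference was 0.47 (SE 0.21, 95% interval -0.01 to 0.95, limma adjusted p = 0.408). Sphk1 had the largest estimate of the 7 and also varied more within groups than genes of like level, with a within-group SD of 0.344 on the log2 scale against a median of 0.135 for 4243 genes within 2-fold of its mean. Without Dcir-/- 21 the log2 difference was 0.25, and without Dcir-/- 21 and WT 3 together, an alternative chosen after seeing the data, 0.11.

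The wider S1P list held 21 genes for its synthesis, breakdown, export and reception, of which 18 were tested and none passed limma. Of these, 9 had a higher and 9 a lower mean on the log2 scale in Dcir-/- OCs (8 and 10 by mean CPM, since Mfsd2b was nearly level), with a median log2 difference of 0.006. Sphk2, the second sphingosine kinase, read 175, 175.5 and 181 CPM in Dcir-/- and 159.9, 184 and 193 CPM in WT OCs, with full overlap. Spns2, an S1P exporter in endothelium, read 191, 146 and 163 CPM against 132, 148 and 145 CPM (log2 difference 0.23, SE 0.10, limma adjusted p = 0.425), again highest in Dcir-/- 21 and lowest in WT 3, and differed by 0.13 without Dcir-/- 21. Acer2, a ceramidase that frees sphingosine, was higher in every Dcir-/- library (7.87, 6.62 and 6.44 CPM) than in any WT library (4.58, 5.03 and 3.70 CPM). Its log2 difference of 0.56 (SE 0.14) did not pass limma (adjusted p = 0.171). The receptor S1pr1 ran the other way, at 3.86, 9.41 and 7.08 CPM against 14.4, 11.96 and 10.7 CPM, and missed the threshold too (log2 difference -0.84, SE 0.26, limma adjusted p = 0.240). Without Dcir-/- 21 the S1pr1 difference was -0.53, and without WT 3 as well, -0.43. Among the other enzymes and transporters, the log2 differences were -0.51 for Plpp3, -0.40 for Sgpp1, 0.14 for Abcc1 and 0.042 for Sgpl1.

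Pdgfb (ENSMUSG00000000489.7, chromosome 15: 79995874-80014977, - strand) encodes the chain of PDGF-BB, which OC precursors secrete and which draws mesenchymal and endothelial progenitors. It read 406, 338 and 375 CPM in Dcir-/- 21, 22 and 83 and 313, 356 and 369 CPM in WT 3, 82 and 94. The order of libraries resembled that of Sphk1 at a smaller scale, with Dcir-/- 22 below WT 82. Means were 373 ± 34.3 and 346 ± 29.4 CPM (SD, n = 3 each), and the log2 difference was 0.11 (SE 0.10, 95% interval -0.12 to 0.33, limma adjusted p = 0.714). Without both end libraries it was -0.03, so the sign rested on Dcir-/- 21 and WT 3.

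In a list of 17 genes, the PDGF and VEGF ligands and receptors with the protease Furin, 11 were tested, 8 with a higher and 3 with a lower mean in Dcir-/- OCs (median log2 difference 0.06, the value of Furin). The PDGF receptors Pdgfra and Pdgfrb were below the filter. Only Pgf, placental growth factor, a ligand of VEGF receptor 1, passed. It fell from 9.12, 8.86 and 10.5 CPM in WT 3, 82 and 94 to 5.29, 5.39 and 5.36 CPM in Dcir-/- 21, 22 and 83, with no overlap. The log2 difference was -0.72 (SE 0.11, limma adjusted p = 0.0452). The size of the Pgf difference held between -0.77 and -0.65 with any 1 library left out, but the adjusted p ranged from 0.0324 to 0.239 and passed only without WT 3, not without any of Dcir-/- 21, 22, 83, WT 82 and WT 94. It did not pass with 1 adjusted count in any library as the filter (limma adjusted p = 0.0927), with 1 CPM in all libraries (0.0519) or with array weights (0.0733). Kdr (log2 difference -1.01, or -0.46 without WT 3) and Flt1 (0.50), both VEGF receptors, did not pass, nor did Vegfa (0.21) and the co-receptor Nrp2 (0.155).

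Tgfb1 (ENSMUSG00000002603.15, chromosome 7: 25687002-25705077, + strand) encodes the growth factor that resorbing OCs release from matrix and that attracts osteoblast precursors. It read 274, 254.5 and 257 CPM in Dcir-/- 21, 22 and 83 and 291, 259.6 and 255 CPM in WT 3, 82 and 94. It was the sole tested coupling factor with its highest value in WT 3, as 24.8% of all tested genes had. Group means were 262 ± 10.7 and 268.5 ± 19.4 CPM (SD, n = 3 each), with a log2 difference of -0.033 (SE 0.08, 95% interval -0.21 to 0.15, limma adjusted p = 0.908). Of the 7, only Tgfb1 had a lower mean in Dcir-/- OCs, and without WT 3 its log2 difference was 0.03.

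The list of TGF-beta ligands and the proteins that store or activate them held 23 genes, 15 of them tested, and none passed limma. A higher mean in Dcir-/- OCs was found for 10 and a lower one for 5 (median log2 difference 0.06). The paralogs Tgfb2 and Tgfb3 were below the filter. Ltbp1, which tethers latent TGF-beta to matrix, read 11.2, 11.8 and 9.95 CPM in Dcir-/- against 5.81, 8.32 and 6.89 CPM in WT OCs (log2 difference 0.59, SE 0.14, limma adjusted p = 0.156). Ltbp3, a second latent binding protein, read 89.7, 69.4 and 80.8 CPM against 49.7, 63.4 and 59.9 CPM (log2 difference 0.46, SE 0.12, limma adjusted p = 0.186). Groups did not overlap for either binding protein. Nrros, which anchors latent TGF-beta on myeloid cells, had a log2 difference of -0.55 (SE 0.15, limma adjusted p = 0.192). The integrin Itgb3 (0.41) and the proteases Mmp9 (0.11) and Ctsk (0.074) did not pass either.

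Lif (ENSMUSG00000034394.14, chromosome 11: 4257557-4272514, + strand) encodes leukemia inhibitory factor, an interleukin-6 family cytokine that favours osteoblast differentiation. It read 16.6, 12.6 and 12.4 CPM in Dcir-/- 21, 22 and 83 and 9.24, 13.4 and 12.1 CPM in WT 3, 82 and 94. Dcir-/- 22 and 83 lay between WT 82 and WT 94, so that only the highest and the lowest library separated the means. These were 13.9 ± 2.32 and 11.6 ± 2.13 CPM (SD, n = 3 each), a log2 difference of 0.25 (SE 0.16, 95% interval -0.13 to 0.62, limma adjusted p = 0.601). Without Dcir-/- 21 and WT 3 the difference of Lif was -0.02.

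In a list of 17 interleukin-6 family ligands, receptors and the signalling genes Socs3 and Stat3, 10 were tested and none passed limma, with 4 higher and 6 lower means and a median log2 difference of -0.05. Clcf1, another ligand of the family, was higher in each Dcir-/- library (4.98, 4.78 and 5.88 CPM) than in any WT library (2.99, 3.48 and 3.40 CPM). Its log2 difference was 0.53 (SE 0.13, limma adjusted p = 0.156). Osm, oncostatin M, had a log2 difference of -0.84 (limma adjusted p = 0.384). Without WT 3 the difference of Osm was -0.43. Il6st, the shared signal-transducing receptor gp130, differed by -0.002 on the log2 scale, Il6ra by -0.345, Socs3 by -0.385 and Stat3 by -0.089.

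Cthrc1 (ENSMUSG00000054196.7, chromosome 15: 39076932-39087121, + strand) encodes a secreted collagen triple helix repeat protein that resorbing OCs release and that promotes bone formation. It read 3.17, 1.89 and 2.66 CPM in Dcir-/- 21, 22 and 83 and 2.02, 1.93 and 2.26 CPM in WT 3, 82 and 94. Dcir-/- 22 was the lowest and Dcir-/- 21 the highest of all 6. Means were 2.58 ± 0.645 and 2.07 ± 0.168 CPM (SD, n = 3 each), with a log2 difference of 0.21 (SE 0.16, 95% interval -0.16 to 0.57, limma adjusted p = 0.663). At this level the pseudocount of 1 CPM shrinks the log2 difference, and the ratio of means was 1.24. Without Dcir-/- 21 the log2 difference was 0.09.

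Wnt10b (ENSMUSG00000022996.15, chromosome 15: 98770712-98778150, - strand) encodes a Wnt ligand that drives osteoblast differentiation. It was the only coupling factor under 1 CPM, and was so in all 6 libraries. It read 0.248, 0 and 0.0983 CPM in Dcir-/- 21, 22 and 83 and 0, 0.225 and 0.120 CPM in WT 3, 82 and 94, or at most 8.3 adjusted counts. Each genotype had 1 library at 0. The means of 0.116 ± 0.125 and 0.115 ± 0.112 CPM (SD, n = 3 each) gave p = 1 in an exact 2-sided permutation test of the CPM, whose smallest possible p is 0.1. A genotype difference in Wnt10b was not detectable in these libraries.

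Of 38 Wnt ligands, release factors and receptors, 20 had a row and 14 were tested, and none passed limma. Means were higher for 6 and lower for 8, with a median log2 difference of -0.10. Wnt1, Wnt2b and Wnt5b were below the filter with Wnt10b. The ligands tested were Wnt6 and Wnt9a, at means of 1.225 and 2.947 CPM over the 6 libraries, with log2 differences of -0.227 and -0.216. Of 12 Wnt antagonists only Notum was tested, at 1.35 ± 0.472 CPM in Dcir-/- and 1.02 ± 0.150 CPM in WT (SD, n = 3 per group), a log2 difference of 0.20 that did not pass limma. Notum was under 1 CPM in 3 libraries, and it fell below the filter without Dcir-/- 21, Dcir-/- 83 or WT 82. Wls, the carrier that Wnt proteins need to leave the cell, read 24.1, 31.2 and 28.9 CPM in Dcir-/- against 53.4, 38.5 and 35.9 CPM in WT OCs. The groups did not overlap, but the log2 difference of -0.57 (SE 0.16) did not pass limma (adjusted p = 0.203), and it was -0.30 without WT 3 and Dcir-/- 21. The receptors Fzd3 (log2 difference 0.28), Fzd5 (0.30), Fzd6 (0.215), Lrp5 (0.014) and Lrp6 (-0.22) did not pass. Fzd6 passed the filter only through the 3 Dcir-/- libraries, which fixes its direction.

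SLIT3 acts through Robo receptors and promotes osteoblast migration. The list for this pathway held 12 genes, namely Slit and Robo genes with the binding partners and effectors Srgap1, Srgap2, Srgap3, Gpc1 and Dag1. Of these, 7 had a row and 6 were tested, none of which passed limma (median log2 difference 0.09). Slit1 was the only Slit or Robo gene among the 6, so the median describes the partners, such as Srgap3 (0.30), Gpc1 (0.15) and Dag1 (0.085). Slit1 read 0.631, 0.671 and 0.714 CPM in Dcir-/- 21, 22 and 83 and 2.73, 1.82 and 1.15 CPM in WT 3, 82 and 94. Slit1 passed the filter only through the 3 WT libraries, which fixes its direction and the lack of overlap, and it fell below the filter when any WT library was left out. Its log2 difference was -0.76 (SE 0.20, limma adjusted p = 0.188).

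Sema4d (ENSMUSG00000021451.16, chromosome 13: 51685529-51793747, - strand) encodes a membrane semaphorin that acts on osteoblasts through Plexin-B1 and suppresses bone formation. It read 955, 919 and 919.9 CPM in Dcir-/- 21, 22 and 83 and 899.9, 923.5 and 876 CPM in WT 3, 82 and 94. WT 82 lay above Dcir-/- 22 and 83. Means were 931 ± 20.6 and 899.8 ± 23.7 CPM (SD, n = 3 each), a log2 difference of 0.050 (SE 0.07, 95% interval -0.12 to 0.22, limma adjusted p = 0.835). Sema4d was the steadiest of the 7, with a within-group SD of 0.035 on the log2 scale beside a median of 0.121 for 281 genes within 2-fold of its level.

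Class 4 semaphorins with their sheddases and receptors made a list of 16, of which 12 were tested and none passed limma. Means were higher for 5 and lower for 7, and the median log2 difference was -0.07. Plxnb1, the receptor of SEMA4D on osteoblasts, was below the filter. Met, which can pair with Plexin-B1, had 104 ± 0.0474 CPM in Dcir-/- and 85.6 ± 4.57 CPM in WT (SD, n = 3 per group, log2 difference 0.28, SE 0.07, limma adjusted p = 0.184). Cd72, a SEMA4D receptor of immune cells, had 202 ± 12.7 and 169 ± 11.9 CPM (log2 difference 0.26). Other log2 differences were -0.325 for Sema4a (-0.099 without Dcir-/- 21), -0.55 for Sema4c (-0.305 without WT 3), -0.032 for Plxnb2 and 0.145 for Plxnd1.

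Efnb2 (ENSMUSG00000001300.16, chromosome 8: 8617434-8661242, - strand) encodes ephrin-B2, which engages EphB4 on osteoblasts and favours their differentiation. It read 32.4, 22.4 and 22.1 CPM in Dcir-/- 21, 22 and 83 and 20.4, 22.4 and 23.0 CPM in WT 3, 82 and 94. The other 5 libraries lay within a narrow band below Dcir-/- 21. Means were 25.6 ± 5.86 and 21.9 ± 1.36 CPM (SD, n = 3 each), with a log2 difference of 0.20 (SE 0.15, 95% interval -0.15 to 0.54, limma adjusted p = 0.652). Without Dcir-/- 21 it was 0.02.

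Of 20 ephrins and Eph receptors, 14 had a row and 6 were tested, 3 with a higher and 3 with a lower mean on the log2 scale (4 and 2 by mean CPM, since Efna1 was nearly level) and none past limma (median log2 difference 0.09). Efna2 differed by -0.17 and Epha4 by 0.20 on the log2 scale. Efnb1, a paralog, read 31.8, 32.1 and 32.01 CPM in Dcir-/- 21, 22 and 83 and 25.5, 29.9 and 29.1 CPM in WT 3, 82 and 94. Unlike those of Efnb2, its groups did not overlap, although its log2 difference of 0.18 (SE 0.09) was of the same size and did not pass limma (adjusted p = 0.479). Without WT 3 the Efnb1 difference was 0.11. Ephb4, the osteoblast receptor of ephrin-B2, was below the filter at means of 0.306 and 0.408 CPM.

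**Figure D3:**
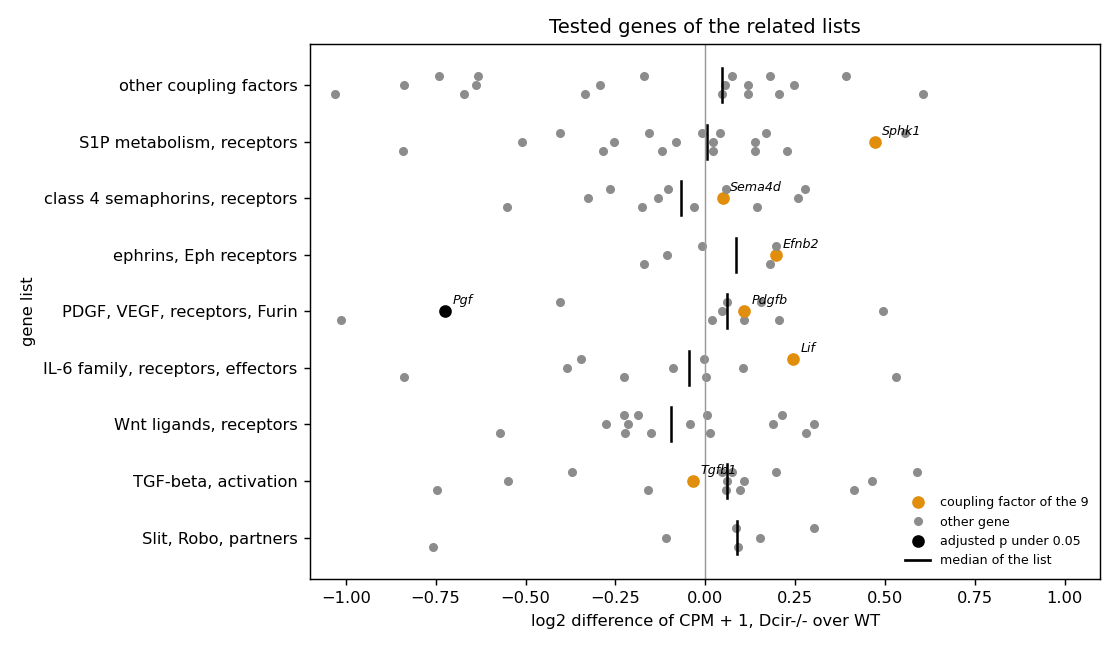
Log2 difference of CPM + 1, Dcir-/- over WT, of each tested gene of 9 related lists (1 point per gene, with the list median as a line and the coupling factors and Pgf named). Pgf, at -0.72, is the only point past an adjusted p of 0.05, and list medians lie between -0.10 and 0.09.

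A further list of 34 genes proposed as coupling or OC-secreted factors, chosen like the other lists with earlier results of these data known, had 19 tested members, 10 with a higher and 9 with a lower mean (median log2 difference 0.05). None passed limma in the 6 libraries. Gas6, the ligand of the receptor kinases Tyro3, Axl and Mer, read 70.9, 71.5 and 75.2 CPM in Dcir-/- 21, 22 and 83 and 160.6, 116 and 97.0 CPM in WT 3, 82 and 94, without overlap (log2 difference -0.74, SE 0.16, limma adjusted p = 0.125). Without WT 3 the difference of Gas6 was smaller, -0.54, but passed (limma adjusted p = 0.0257), as it did without WT 94 (-0.90, limma adjusted p = 0.0300). With another library left out it did not pass, the limma adjusted p being 0.515, 0.314 and 0.387 without Dcir-/- 21, 22 and 83 and 0.274 without WT 82. Igf1, a matrix-stored growth factor, read 39.6, 71.7 and 61.7 CPM against 205, 98.3 and 75.7 CPM (log2 difference -1.03, SE 0.35, limma adjusted p = 0.283), and its difference was -0.615 without WT 3 and -0.37 without Dcir-/- 21 as well. Sema3a, a semaphorin that protects bone, read 4.43, 2.98 and 3.96 CPM against 1.76, 2.27 and 2.38 CPM (log2 difference 0.61, SE 0.16, limma adjusted p = 0.186). Cxcl16 (log2 difference -0.67, or -0.43 without WT 3) and Creg1 (-0.29, or -0.13 without WT 3) did not pass. In these lists, leaving out 1 library also moved the differences of Sphk2, Abcc1, Sgpp1, Vegfa, Nrp2, Itgb3, Mmp9, Socs3, Stat3, Fzd5, Lrp6, Notum, Plxnd1, Efna2, Srgap3 and Gpc1, none of them past limma, by over 1.5 times. Sgpl1, Il6st, Lrp5, Plxnb2, Ctsk and Dag1, also named above, were among the genes not checked in this way.

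Across the 6 libraries, the extremes of most tested coupling factors fell in the same cultures. Of the 7 tested, 6 had their highest value in Dcir-/- 21, where 17.8% of all tested genes had theirs. Sphk1, Efnb2, Lif and Pdgfb also had their lowest value in WT 3, where 31.2% of all tested genes had theirs. Cthrc1 and Tgfb1 were lowest in Dcir-/- 22 and Sema4d in WT 94. As deviations from the mean of 6 libraries on the log2 scale, Dcir-/- 21 stood at 0.68 for Sphk1, 0.45 for Efnb2, 0.37 for Lif, 0.34 for Cthrc1 and 0.18 for Pdgfb. Sema4d and Tgfb1, abundant transcripts both, deviated there by 0.06 and 0.05. The median log2 difference of the 7 was 0.044 without Dcir-/- 21 and -0.007 without Dcir-/- 21 and WT 3.

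Among marker lists, those of OCs and macrophages had their extremes in the same pair of libraries. The summed level of the 15 OC markers was 28140 CPM in Dcir-/- 21 and 21080 CPM in WT 3, and between 21680 and 23790 CPM in the other 4. Of these markers 14 had a higher mean in Dcir-/- OCs, as 53.8% of all tested genes had. Groups did not overlap for 5 of the 14, and 10.5% of all tested genes were higher without overlap. None of the 15 passed limma. Beside the marker calls below, 0.441% of all tested genes passed limma, 0.292% as lower in Dcir-/-. The summed level of 11 macrophage markers ran from 2846 to 3178 CPM in Dcir-/- and from 3169 to 4815 CPM in WT OCs, lowest in Dcir-/- 21 and highest in WT 3. Of these 11, C1qa and C1qc passed limma as lower in Dcir-/-, and 10 had a lower mean. The exception, Cx3cr1, had a log2 difference of 0.605 and did not pass. Csf1r, the highest of the 11 by mean CPM, differed by -0.007. All 10 tested monocyte and neutrophil markers had a lower mean in Dcir-/- OCs, S100a8, S100a9 and Ltf among those past limma, with sums of 244 to 315.5 CPM against 441 to 533 CPM, lowest in Dcir-/- 22 and highest in WT 94, Ly6g being below the filter. The 11 megakaryocyte and platelet markers summed to 68.9 to 75.4 CPM in Dcir-/- and 79.7 to 155 CPM in WT OCs, highest in WT 3. Of 6 tested, 5 had a lower mean and 1, Pf4, passed as lower, with Gp6, Gp9 and Tubb1 among those below the filter. Gp1ba had a higher mean (log2 difference 0.038), and Vwf, the highest of the tested by mean CPM, differed by -0.019. Of the marker calls named here, all passed without WT 3, Pf4, C1qa, C1qc and S100a8 without WT 94, Pf4 and Ltf without Dcir-/- 21, Pf4 alone without Dcir-/- 83 or WT 82, and none without Dcir-/- 22. Of 8 endothelial markers 2 were tested, both with a lower mean in Dcir-/- OCs and neither past limma, and none of 8 lymphocyte markers passed the filter. The part of these markers in the values of the coupling factors was not tested. In bulk RNA, fewer cells of a type and less RNA per cell cannot be told apart.

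**Figure D4:**
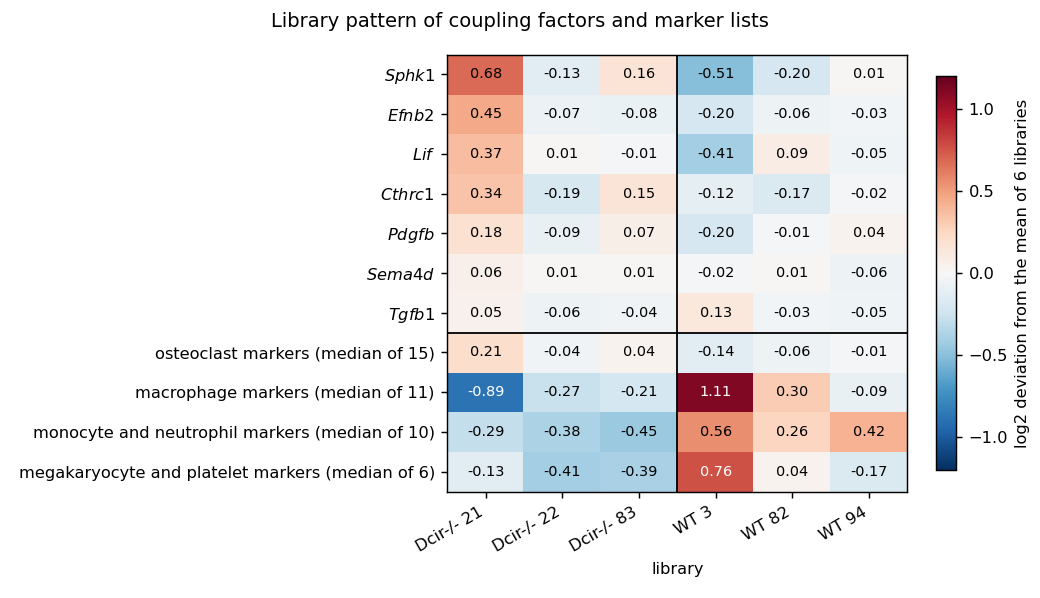
Deviation of log2(CPM + 1) from the mean of 6 libraries, for 7 coupling factors and for the median of 4 marker lists (columns, libraries). Red in Dcir-/- 21 and blue in WT 3 mark Sphk1 (0.68 and -0.51), Lif (0.37 and -0.41) and the OC markers (0.21 and -0.14), and macrophage markers run opposite (-0.89 and 1.11).

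The genes whose profiles lay nearest to each coupling factor were found by the root mean square difference of log2(CPM + 1), centred on its mean, over the 6 libraries. For Sphk1 these were Entpd3 (0.067) and Gm2451 (0.078), against a spread of Sphk1 itself of 0.367. For Efnb2 they were Cxxc5 (0.042) and Gpr176 (0.045), and for Lif D630024D03Rik (0.045) and Fbln7 (0.054). Pdgfb lay nearest to Plekhf1 (0.023) and Tor2a (0.023), and Cthrc1 to Nr1d1 (0.055) and Bpi (0.057). For Sema4d, Smug1 (0.013) and Gm12592 (0.018) were nearest, and for Tgfb1, Gpr108 (0.022) and Cyfip1 (0.025). By the largest absolute difference in any library in place of the root mean square, 9 of these 14 genes stayed among the nearest, and Cthrc1 then lay nearest to Gm50149 and Efnb2 to Hook1. No coupling factor was among the nearest of another. With 6 libraries and 14047 genes some near profiles arise in any case, and the values describe likeness only.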

How the data were processed

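The study measured poly-A RNA from 6 OC cultures on an Illumina stranded kit. Per the methods and labels, the authors used Trim Galore 0.6.6 for trimming and HISAT2 2.2.0 for alignment to mm10, and counted reads on exons with Rsubread. Which annotation was counted, and whether by strand, is not given in the sources used here. The authors deposited 1 table of normalized signal per gene and library, adjusted counts that are mostly not whole (95.8 to 99.8% of the values per library), so raw depth is unknown and no count test was run. The log2 fold change and adjusted p (FDR) columns that the authors deposited hold their own comparison and were not used.

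Each value was divided by the mean column total, 33577739.2, so that 1 CPM is 33.6 adjusted counts. Genes with at least 1 CPM in 3 libraries were tested on log2(CPM + 1) with limma 3.58.1 in R 4.3.3 (trend, genotype only, Benjamini-Hochberg, 0.05). The fit was also run on simulated counts. The changes set in them were larger than the differences of the coupling factors, so that run does not bear on how well these are detected. Fold changes of low genes are understated by the pseudocount. Exon lengths and coordinates come from GENCODE M21 on GRCm38, in which 21449 IDs matched. Only 3 libraries per group limit the precision. Genes were named by rule: the 9 coupling factors, Clec4a2, the 4 tested genes with the smallest limma p and the 2 with the highest CPM of each pathway list (marker lists are given by sums and by some of their calls), and the 2 nearest profiles of each coupling factor. Sphk2, Spns2 and the paralogs, receptors and markers outside this rule were named after their values were seen. The members and lists were chosen with earlier results of these data known. Alternatives covered filter, pseudocount, scaling, limma settings, likeness measure and left-out libraries.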

Additional observations from a re-analysis of the deposited data

How the results depend on the processing

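Over 105 alternatives of the differences of the 7 tested coupling factors, none passed limma, with a smallest adjusted p of 0.227, and 4 changed direction. These were Tgfb1 at 0.026 without WT 3, and Pdgfb at -0.027, Lif at -0.021 and Efnb2 at -0.028 (log2) without WT 3 and Dcir-/- 21. With 1 library left out, log2 differences ranged from 0.25 to 0.66 for Sphk1, -0.069 to 0.026 for Tgfb1, 0.04 to 0.18 for Pdgfb, 0.10 to 0.35 for Lif, 0.09 to 0.35 for Cthrc1, 0.03 to 0.07 for Sema4d and 0.02 to 0.29 for Efnb2, their median from 0.044 to 0.278 (-0.007 without WT 3 and Dcir-/- 21), and the CPM difference of Wnt10b from -0.066 to 0.058, or -0.124 without WT 3 and Dcir-/- 21. Counting values under 2 CPM in any library gave 2 coupling factors, Wnt10b and Cthrc1, in place of 1.

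The count over all genes, 62 (21 higher and 41 lower in Dcir-/-), became 30 (10 and 20) with at least 1 CPM required in all libraries, 39 (25 lower) with array weights, whose fit gave a convergence warning, and 138 (47 and 91) without WT 3 and Dcir-/- 21. It ranged from 2 to 126 with 1 library left out (1 to 39 higher, 1 to 87 lower). For all related lists together the count of 8 became 3, 2 and 13 under the same alternatives, and 0 to 13 with 1 library left out. The causes were not tested. No paired analysis was possible because the groups share no replicate number. With 3 libraries per group the median width of the members' 95% intervals was 0.683 on the log2 scale, widest for Sphk1. By the other measure of likeness 9 of 14 nearest genes were shared.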
